A study of Homo sapiens with 6 samples.

Results

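The reticulocalbins and calumenin are 5 related genes, RCN1, RCN2, RCN3, CALU and SDF4, whose transcripts were followed in H69 cells after a histone deacetylase inhibitor. They were found by their symbols among the 31814 gene rows of the expression table, each symbol matched a single row, and all 5 passed the filter on low values, which left 17596 tested genes. The treated group held 3 libraries of H69 cells given trichostatin A (TSA) at 1 µM for 24 h, and the other group held 3 libraries of H69 cells given its solvent DMSO (vehicle) for the same time. TSA blocks histone deacetylases, the enzymes that take acetyl groups off histones and other proteins. One label of the treated samples gives the agent as HSA, but TSA is the agent named elsewhere in the labels and is used here. H69 is a human cell line, kept here in RPMI medium with serum, and no tissue of origin is named in the labels. The study calls the libraries triplicates without saying whether each had a culture of its own, so their spread, and the p-values that rest on it, may be technical.

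These proteins make up a family of calcium-binding proteins with several EF-hand loops, a helix-loop-helix fold that holds a calcium ion, and they stay in or pass through the secretory pathway. RCN1, RCN2 and RCN3 encode reticulocalbins, which are kept in the lumen of the endoplasmic reticulum (ER) by a retrieval signal at the end of the protein. CALU encodes calumenin, found in the ER and also secreted, which is known as an inhibitor of the vitamin K-dependent carboxylation of proteins. SDF4 encodes Cab45, a protein of the Golgi lumen that takes part in sorting secreted cargo with the calcium pump encoded by ATP2C1. In mice, loss of Rcn3 is known to impair lung maturation.

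The family differed in both directions after TSA. RCN3 and CALU were higher, RCN1 and SDF4 were lower, and RCN2 was at close levels in both groups. The family was chosen by these very values, the TSA and vehicle TPM, since RCN3 stood among the genes with the greatest rise, so the members' values are a description, and no p-value of a member is given or read as support. For description only, at the threshold used for the other genes below (limma adjusted p under 0.05) 2 members lay on the higher side and 2 on the lower side, where 62.2% of all tested genes passed in either direction, 28.0% as higher and 34.2% as lower. RCN3 was under 1 TPM in every vehicle library, so it could pass the filter on low values only by being higher in TSA. The TSA and vehicle values did not overlap in 4 of the 5 members, where 67.0% of all tested genes did not overlap, 30.8% with TSA higher and 36.2% with TSA lower. In libraries of whole cultures, a change in how many cells carry a transcript and a change in the amount per cell cannot be told apart.

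RCN3 (ENSG00000142552.3) was the member that differed most. It had 78.3, 93.5 and 103.8 TPM in TSA libraries 1, 2 and 3, against 0.286, 0.761 and 0.0675 TPM in vehicle libraries 1, 2 and 3. TPM is a transcript level scaled by gene length and then to one fixed total per library, so levels of different genes can be set side by side. Every TSA library was at least 102.9-fold above the highest vehicle library, and the 3 TSA values lay within 1.33-fold of each other. The vehicle values lay 11.3-fold apart, and they rest on few reads. Whole reads recovered from the TPM values came to 1190, 1459 and 1539 in TSA libraries, against 4, 10 and 1 in vehicle libraries. Scaled to the recovered reads of each group, RCN3 was 282-fold higher in TSA, with an exact 95% interval of 171 to 504 that covers counting error only. Vehicle library 2 held 10 of the 15 vehicle reads, and without it the ratio was 584, above that interval.

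The mean level of RCN3 was 91.9 ± 12.9 TPM in TSA and 0.371 ± 0.354 TPM in vehicle (SD, n = 3 each). On the log2(TPM + 1) scale the difference of RCN3, TSA minus vehicle, was 6.10 with a standard error of 0.22 (n = 3 per group) and a 95% interval of 5.58 to 6.62. Only 5 of the 17596 tested genes had a greater difference. The pseudocount of 1 understates the change of a gene so low in vehicle, and with a pseudocount of 0.1 the difference was 7.90. By mean level RCN3 was above 88.1% of the tested genes in TSA libraries and above 3.85% of them in vehicle libraries.

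RCN1 (ENSG00000049449.4) had 1.96, 1.67 and 2.19 TPM in TSA libraries 1, 2 and 3, against 10.6, 14.4 and 12.1 TPM in vehicle libraries 1, 2 and 3. The groups did not overlap, and the lowest vehicle value was 4.83 times the highest TSA value. The mean was 1.94 ± 0.260 TPM in TSA and 12.3 ± 1.94 TPM in vehicle, so that RCN1 was 6.36-fold lower in TSA. Its log2 difference was −2.18 with a standard error of 0.16 and a 95% interval of −2.57 to −1.78, and 4.29% of the tested genes had a lower difference. It rests on 103, 90 and 112 recovered reads in TSA libraries, against 510, 654 and 617 in vehicle libraries. A processed pseudogene copy, RCN1P2 (ENSG00000214455.3), looked up after the values of RCN1 were seen, was at 1.05, 1.61 and 0.924 TPM in TSA libraries and at 6.53, 9.55 and 6.93 TPM in vehicle libraries. Its recovered reads numbered 7, 11 and 6 in TSA libraries and 40, 55 and 45 in vehicle libraries. Since the deposited counting may split reads between near-identical copies, the level of RCN1 is uncertain. In GENCODE 29 a further gene overlaps RCN1 on the same strand and an antisense gene overlaps it on the opposite strand, and neither was analysed here.

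Because RCN3 and RCN1 differed most and in opposite directions, the 250 bases before their annotated starts are shown, from RefSeq on GRCh38.p14, 5′ to 3′ on the plus strand, which is the coding strand of both genes. The RCN3 window is chr19:49527753-49528002 and the RCN1 window is chr11:32090824-32091073. Capitals mark matches to the GC box GGGCGG and to the CCAAT box CCAAT on either strand, so that CCGCCC and ATTGG are the same motifs on the other strand.
RCN3: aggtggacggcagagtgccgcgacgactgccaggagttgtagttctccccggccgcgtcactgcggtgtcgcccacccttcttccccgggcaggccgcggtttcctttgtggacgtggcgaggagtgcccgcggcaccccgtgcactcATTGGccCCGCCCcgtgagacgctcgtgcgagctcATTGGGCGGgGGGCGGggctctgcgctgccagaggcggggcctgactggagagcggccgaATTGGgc
RCN1: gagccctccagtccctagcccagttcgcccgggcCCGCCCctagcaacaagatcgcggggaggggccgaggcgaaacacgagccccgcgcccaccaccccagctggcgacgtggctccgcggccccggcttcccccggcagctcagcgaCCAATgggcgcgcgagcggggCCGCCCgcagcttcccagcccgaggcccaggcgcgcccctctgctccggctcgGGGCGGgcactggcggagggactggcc
RCN3 has 3 GC boxes and 3 CCAAT boxes, of which 1 CCAAT box shares bases with a GC box, and RCN1 has 3 GC boxes and 1 CCAAT box.

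Both windows were rich in guanine and cytosine, and they differed in CCAAT boxes. Guanine and cytosine made up 71.2% of the RCN3 window and 77.6% of the RCN1 window, against a median of 58.0% over the windows of 35116 RefSeq genes. The other members were at 75.6% for RCN2, 69.2% for CALU and 78.4% for SDF4. All 5 windows held 28 to 44 CG pairs, against a median of 11. CALU and RCN2 had 3 GC boxes and SDF4 had 2, and 24.3% of all windows held 2 or more and 13.9% held 3 or more. CALU had 3 CCAAT boxes like RCN3, while RCN2 and SDF4 had 2, and 2.93% of all windows held 3 or more and 9.53% held 2 or more. A match to the E-box CACGTG was found only for SDF4 among the 5, and in 6.34% of all windows. None of the 5 windows held the TATA box TATAAA or the cyclic AMP response element TGACGTCA, which 10.7% and 1.65% of all windows held. All motifs were searched on both strands, and a match is a run of letters, not a site.

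CALU (ENSG00000128595.12), the most abundant member in both groups, had 487, 514 and 457 TPM in TSA libraries 1, 2 and 3, against 220, 253 and 251 TPM in vehicle libraries 1, 2 and 3. All TSA values lay above all vehicle values, and the lowest TSA value was 1.81 times the highest vehicle value. The means were 486 ± 28.8 TPM in TSA and 241 ± 18.3 TPM in vehicle (SD, n = 3 each), a ratio of 2.01. Its log2 difference was 1.01 with a standard error of 0.11 and a 95% interval of 0.76 to 1.26. As a ratio CALU differed less than RCN3, but it differed more in TPM, and it ranked 245th of the tested genes in TSA and 680th in vehicle. The recovered reads behind it ran from 14674 to 17404 in TSA libraries and from 6675 to 8066 in vehicle libraries. RN7SL81P, annotated as a miscellaneous RNA, lies within CALU on the same strand in GENCODE 29.

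SDF4 (ENSG00000078808.12) had 34.2, 41.3 and 42.6 TPM in TSA libraries 1, 2 and 3, against 59.8, 75.1 and 66.4 TPM in vehicle libraries 1, 2 and 3. All TSA values lay below all vehicle values, with a gap of 1.40-fold between the nearest ones. The mean was 39.4 ± 4.52 TPM in TSA and 67.1 ± 7.65 TPM in vehicle, and the log2 difference was −0.75 with a standard error of 0.13 and a 95% interval of −1.06 to −0.45. This is the smallest of the 4 differences without overlap, and 26.6% of the tested genes had a lower one.

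RCN2 (ENSG00000117906.9) had 85.9, 112.8 and 108.9 TPM in TSA libraries 1, 2 and 3, against 110.04, 129.02 and 114.7 TPM in vehicle libraries 1, 2 and 3. TSA library 2 lay above vehicle library 1, so the groups overlapped. The mean was 102.5 ± 14.5 TPM in TSA and 117.9 ± 9.89 TPM in vehicle. The log2 difference was −0.21 with a standard error of 0.13 and a 95% interval of −0.52 to 0.11. With the trend of each library with transcript length removed the difference was 0.039, so its sign depended on the processing. The annotated length of RCN2 is 6347 nt, the greatest of the 5, which range down to 1859 nt for RCN3.

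**Figure D1:**
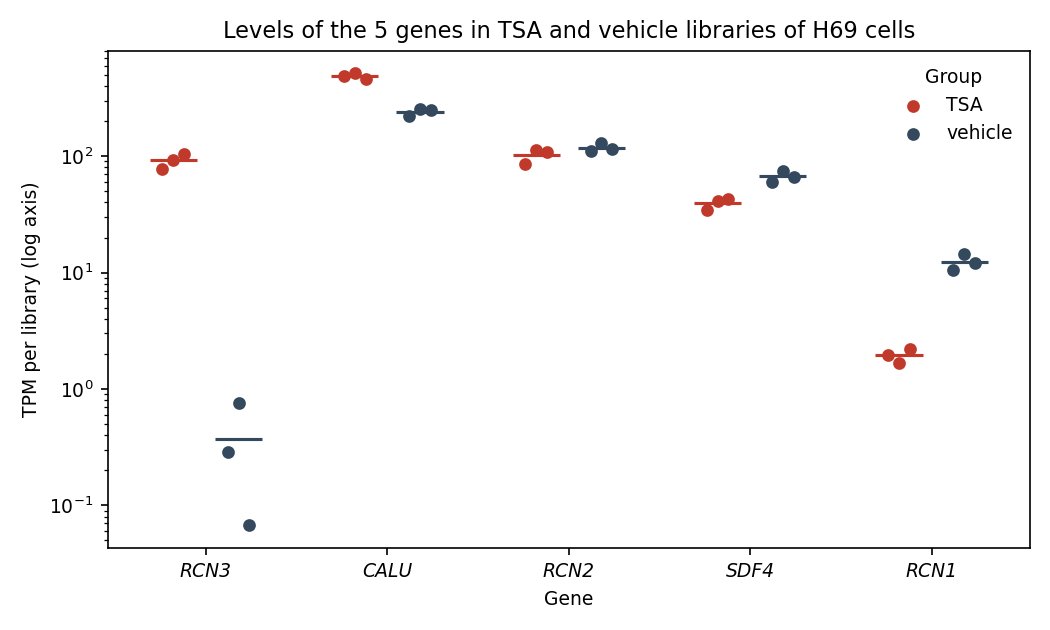
TPM of each gene (log axis) in the 3 TSA libraries (red, left of each pair) and the 3 vehicle libraries (dark, right), with a bar at the group mean. RCN3 stands at 78.3 to 103.8 TPM in TSA and below 1 TPM in vehicle, RCN1 is lower in TSA, and the RCN2 groups overlap.

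**Figure D2:**
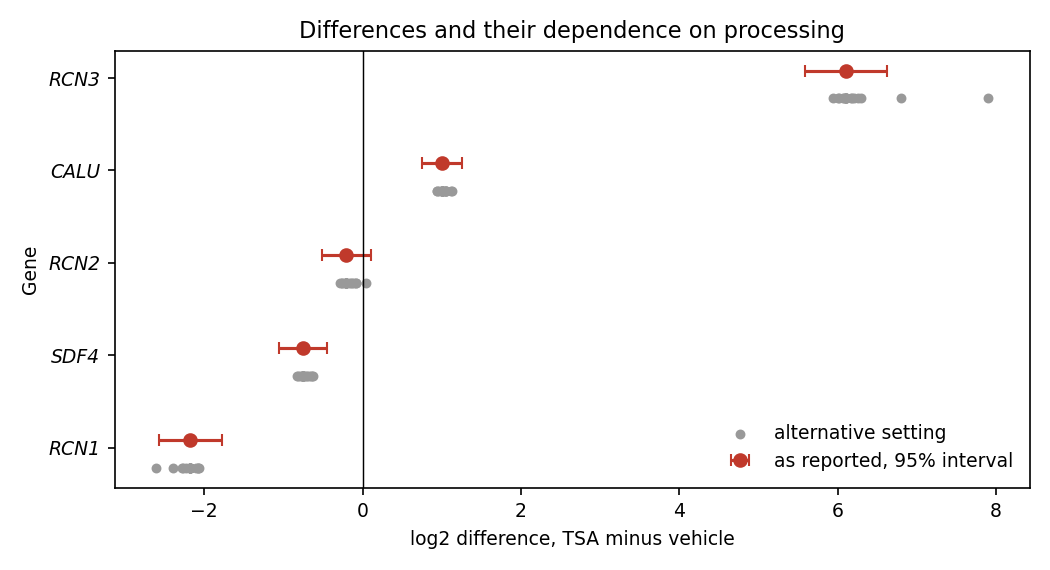
Log2 difference, TSA minus vehicle, of each gene with its 95% interval (red) and its value under the alternative settings run on TPM values (grey). RCN3 lies at 6.10 and RCN1 at −2.18, with RCN2 at −0.21.

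The order of the levels differed at its lower end. In TSA libraries the order was CALU, RCN2, RCN3, SDF4 and RCN1, and the ranges of RCN2 and RCN3 overlapped between libraries, although RCN3 was below RCN2 within each TSA library. In vehicle libraries it was CALU, RCN2, SDF4, RCN1 and RCN3, and no neighbours overlapped. RCN3 was 47.8 ± 8.04 times RCN1 in TSA libraries and 0.0285 ± 0.0236 times RCN1 in vehicle libraries (SD, n = 3 each), a ratio taken within each library, which the library scaling cannot move. RCN3 reached 0.898 ± 0.0634 of the level of RCN2 in TSA libraries, against 0.00303 ± 0.00268 in vehicle libraries. Each of these ratios, and each of those that follow, was higher in every TSA library than in any vehicle library. CALU was 4.81 ± 0.765 times RCN2 in TSA libraries and 2.05 ± 0.122 times RCN2 in vehicle libraries. CALU was 12.5 ± 1.75 times SDF4 in TSA libraries, against 3.61 ± 0.215 times in vehicle libraries.

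Summed over the 5 genes the family came to 687, 764 and 714 TPM in TSA libraries 1, 2 and 3, against 401, 472 and 444 TPM in vehicle libraries 1, 2 and 3. All TSA sums lay above all vehicle sums. CALU made up 67.4 ± 3.45% of the sum in TSA and 55.0 ± 1.47% in vehicle. RCN3 made up 12.7 ± 1.63% in TSA and 0.0826 ± 0.0736% in vehicle. The other 3 members held smaller shares in every TSA library than in any vehicle library. RCN2 held 14.2 ± 1.46% in TSA and 26.9 ± 0.909% in vehicle. SDF4 held 5.45 ± 0.495% in TSA and 15.3 ± 0.558% in vehicle, and RCN1 held 0.270 ± 0.0458% in TSA and 2.80 ± 0.222% in vehicle. Without CALU the sum was 236 ± 30.9 TPM in TSA and 198 ± 19.7 TPM in vehicle, and these values overlapped, with 200.4 TPM in TSA library 1 and 219 TPM in vehicle library 2.

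**Figure D3:**
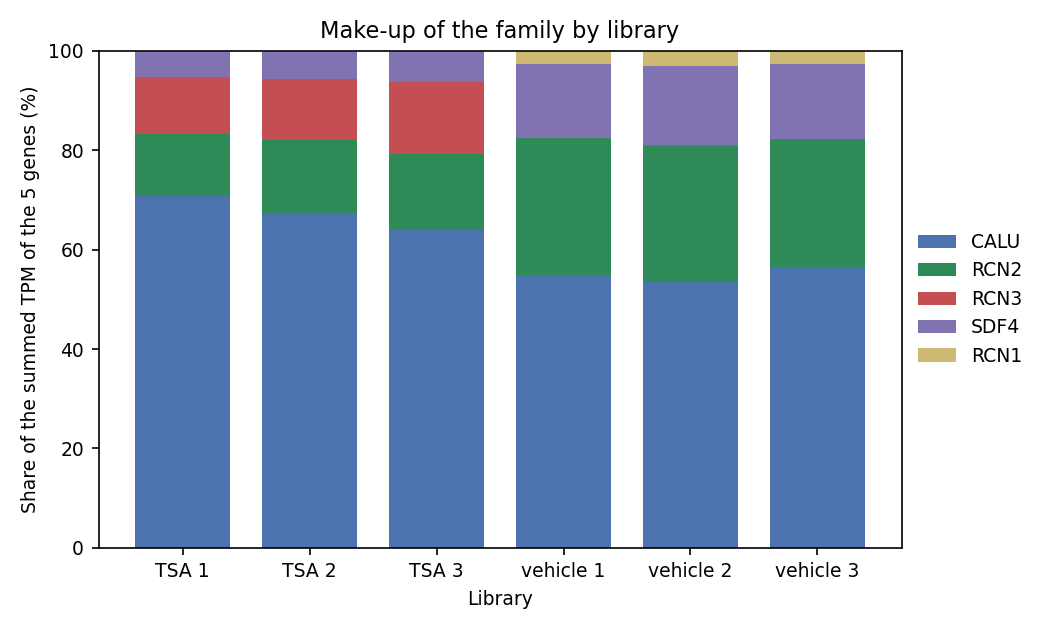
Share of the summed TPM of the 5 genes (percent) held by each gene in the 3 TSA libraries (left) and the 3 vehicle libraries (right). RCN3 fills 11.4% to 14.5% of the TSA bars and at most 0.161% of the vehicle bars, and RCN2, SDF4 and RCN1 hold smaller shares in TSA.

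The replicates differed in ways that the treatment does not explain. Mitochondrial transcripts took 7.65% to 16.9% of the TPM in TSA libraries and 4.97% to 12.3% in vehicle libraries, most in replicate 1 of either group. RCN2, RCN3 and SDF4 were lowest in replicate 1 within the TSA group, and CALU, RCN1, RCN2 and SDF4 were lowest in replicate 1 within the vehicle group. Without both replicate 1 libraries the log2 differences were 6.18 for RCN3, 0.94 for CALU, −0.13 for RCN2, −0.74 for SDF4 and −2.28 for RCN1. With mitochondrial genes left out of the total they were 6.25, 1.05, −0.17, −0.72 and −2.18 in the same order of genes. The authors' deposited table gives log2 fold changes of 8.04 for RCN3, 1.08 for CALU, −0.12 for RCN2, −0.69 for SDF4 and −2.60 for RCN1, with positive values higher in TSA.

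The genes next to the members on the chromosome gave a mixed picture. Of 19 neighbouring protein-coding genes, drawn from the 2 nearest on each side of every member in RefSeq order, 13 were found in the table by symbol and 9 were tested. Of these 2 were higher and 4 lower, so 6 of 9 passed, near the 62.2% of all tested genes. WT1, PSTPIP1, OPN1SW and FCGRT were below the filter, and the other 6 neighbours were not analysed here. NOSIP, the next gene after RCN3, encodes a protein that interacts with nitric oxide synthase, and it was at 129 ± 19.2 TPM in TSA and 28.6 ± 4.14 TPM in vehicle. Its log2 difference was 2.14 with a standard error of 0.16 and an adjusted p of 5.2e-05 in limma. FCGRT, the neonatal Fc receptor gene on the other side of RCN3, stayed below the filter, at 0.462 ± 0.172 TPM in TSA and 0.0360 ± 0.00215 TPM in vehicle. PRRG2, beyond NOSIP, passed at 4.08 ± 1.19 TPM in TSA and 1.53 ± 0.973 TPM in vehicle (adjusted p 0.031), a call that held under 12 of its 18 alternatives, with adjusted p from 0.013 to 0.099. The 6 that ended it were no filter on low values, a quantile scaling, and leaving out TSA replicate 2, TSA replicate 3, vehicle replicate 1 or vehicle replicate 3.

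Near RCN1, PAX6, which encodes a transcription factor of eye and brain development, was at 0.700 ± 0.0789 TPM in TSA and 2.75 ± 0.519 TPM in vehicle (limma adjusted p 0.00094). Its log2 difference was −1.13, and −1.82 with a pseudocount of 0.1. PAX6 was under 1 TPM in every TSA library, so it could pass the filter only by being higher in vehicle, and it is 1 of the 4 lower neighbours. ELP4 and EIF3M, on either side of that stretch, did not pass, with adjusted p of 0.83 and 0.67 in limma. Next to RCN2, SCAPER was lower at 4.35 ± 0.569 TPM in TSA and 7.36 ± 0.365 TPM in vehicle (adjusted p 0.0066), and TSPAN3 did not pass (adjusted p 0.62). Beyond CALU, CCDC136 was lower at 3.05 ± 2.61 TPM in TSA and 12.4 ± 4.50 TPM in vehicle (adjusted p 0.011). B3GALT6, which starts beside SDF4 on the opposite strand and encodes a galactosyltransferase of proteoglycan linkers, was lower at 28.8 ± 4.55 TPM in TSA and 42.1 ± 4.60 TPM in vehicle, a log2 difference of −0.54 against −0.75 for SDF4 (adjusted p 0.017). That call held under 14 of its 19 alternatives, with adjusted p from 0.0025 to 0.11, and ended under a median-of-ratios scaling, a quantile scaling, in the test of recovered reads, and without vehicle replicate 2 or vehicle replicate 3.

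Among 14289 tested genes with a regular symbol, those whose pattern over the 6 libraries was most like that of each member were found by the root mean square difference of log2(TPM + 1) after centring every gene. For RCN3 these were ZCCHC12 at 0.22, PCP4L1 at 0.25, BAIAP3 at 0.30, ATP1B2 at 0.35 and BLVRB at 0.36. They reached 71.0 to 101.5 TPM in TSA and 0.358 to 1.08 TPM in vehicle, beside 91.9 TPM in TSA and 0.371 TPM in vehicle for RCN3. All of them but BAIAP3 averaged under 1 TPM in vehicle, and so passed the filter through their TSA values. For CALU they were TXNDC16 at 0.03, YIPF5 at 0.03 and LTA4H at 0.04. TXNDC16 has thioredoxin domains and YIPF5 is a membrane protein of the ER and Golgi, while LTA4H is a leukotriene hydrolase. For RCN1 they were EMILIN3 at 0.04, NXPH1 at 0.08 and FBLN7 at 0.10, all of which encode secreted or matrix proteins. These had 0.335 to 2.35 TPM in TSA and 4.78 to 13.9 TPM in vehicle. EMILIN3 and FBLN7 averaged under 1 TPM in TSA, and so passed the filter through their vehicle values. EMILIN3 averaged 0.425 TPM in TSA and 5.26 TPM in vehicle, and FBLN7 averaged 0.335 TPM in TSA and 4.78 TPM in vehicle. For RCN1 the means were 1.94 TPM in TSA and 12.3 TPM in vehicle. The pseudocount of 1 shrinks the differences of genes this low, so EMILIN3 and FBLN7 are less like RCN1 as ratios of TPM than on this scale. For SDF4 they were ACP2, TMEM11 and ALKBH4, at 0.03 to 0.04, and for RCN2 they were SDHB, ZFAND1 and LAPTM4B, at 0.03 each.

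Genes of proteins that members of the family are known to bind or act on were found on both sides. Of 8 such genes 7 were tested, and 1 was higher and 4 were lower, where 28.0% of all tested genes were higher and 34.2% lower. Their median log2 difference was −0.57, against −0.10 over all tested genes. GGCX, the vitamin K-dependent carboxylase that calumenin inhibits, rose to 21.7 ± 2.87 TPM in TSA, against 8.91 ± 1.09 TPM in vehicle (limma adjusted p 0.00044). PCSK6, the proprotein convertase known to bind RCN3, fell to 1.55 ± 0.128 TPM in TSA, against 8.03 ± 0.252 TPM in vehicle (adjusted p 5.1e-05). ATP2C1, the Golgi calcium pump that works with the SDF4 protein, fell to 21.2 ± 1.31 TPM in TSA, against 41.4 ± 3.21 TPM in vehicle (adjusted p 0.00028), and FBLN1, a matrix protein bound by calumenin, fell by 1.24 on the log2 scale (adjusted p 0.00044).

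Of 16 chaperones of the ER lumen, the compartment the reticulocalbins share, 9 were higher and 2 lower, with a median log2 difference of 0.56. Over all tested genes 28.0% were higher and 34.2% lower. CRELD2, CALR, HSPA5 and HSP90B1 rose by 1.46, 1.36, 1.20 and 1.15 on the log2 scale, beside 1.01 for CALU and 6.10 for RCN3. CALR, calreticulin, a calcium-binding chaperone, was at 2685 ± 479 TPM in TSA and 1040 ± 164 TPM in vehicle. Of 18 ER retrieval and cargo receptors 8 were higher and 1 lower, around a middle value (median) of 0.25. KDELR3, a receptor for the retrieval signal that holds proteins like the reticulocalbins in the ER, rose to 4.99 ± 0.127 TPM in TSA, against 0.459 ± 0.176 TPM in vehicle (limma adjusted p 5.5e-05), and was under 1 TPM in every vehicle library. Its log2 difference was 2.04, and 3.23 with a pseudocount of 0.1. ERGIC1, TMED2 and ERGIC2 rose by 1.70, 1.11 and 1.07. Of 16 ER oxidoreductases and prolyl isomerases 6 were higher and 4 lower, the median was 0.05, and the split depended on single libraries. It was 3 higher and 3 lower without TSA replicate 2, TSA replicate 3 or vehicle replicate 3, and 3 higher and 4 lower without vehicle replicate 1. PPIC rose by 2.05, P4HB by 1.11 and ERP44 by 0.76, while TXNDC5 fell by 0.86.

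Other calcium-binding proteins of the secretory pathway were found on both sides, too. Among all tested genes 28.0% were higher and 34.2% lower, 62.2% in either direction, and the median log2 difference was −0.10. Of 14 tested EF-hand proteins 6 were higher and 5 lower, around a middle value (median) of 0.01. Among them were NUCB1, a Golgi protein that rose by 1.49, STIM1, the ER calcium sensor, which rose by 1.69, and SPOCK3 and FKBP9, which fell by 1.44 and 1.29. Of 12 tested calcium pumps and release channels 5 were higher and 5 lower, around a middle value (median) of 0.34. ITPR2 and ORAI1 rose by 1.87 (3.44 with a pseudocount of 0.1) and 1.55, and ATP2A3 and ITPR3 fell by 1.68 and 1.28. Of 14 tested collagen biosynthesis genes 5 were higher and 7 lower, around a median of −0.31. P4HA3 rose by 2.76, while CRTAP, COLGALT2 and PLOD2 fell by 2.28, 2.25 and 1.94. Each gene named in the lists from the chaperones to the collagen genes passed limma's test over all genes, with adjusted p from 1.4e-05 to 0.0039. In 3 of these lists, namely the retrieval receptors, EF-hand proteins and calcium genes, 1 tested member each was under 1 TPM in all vehicle libraries and so could pass the filter only by being higher in TSA.

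**Figure D4:**
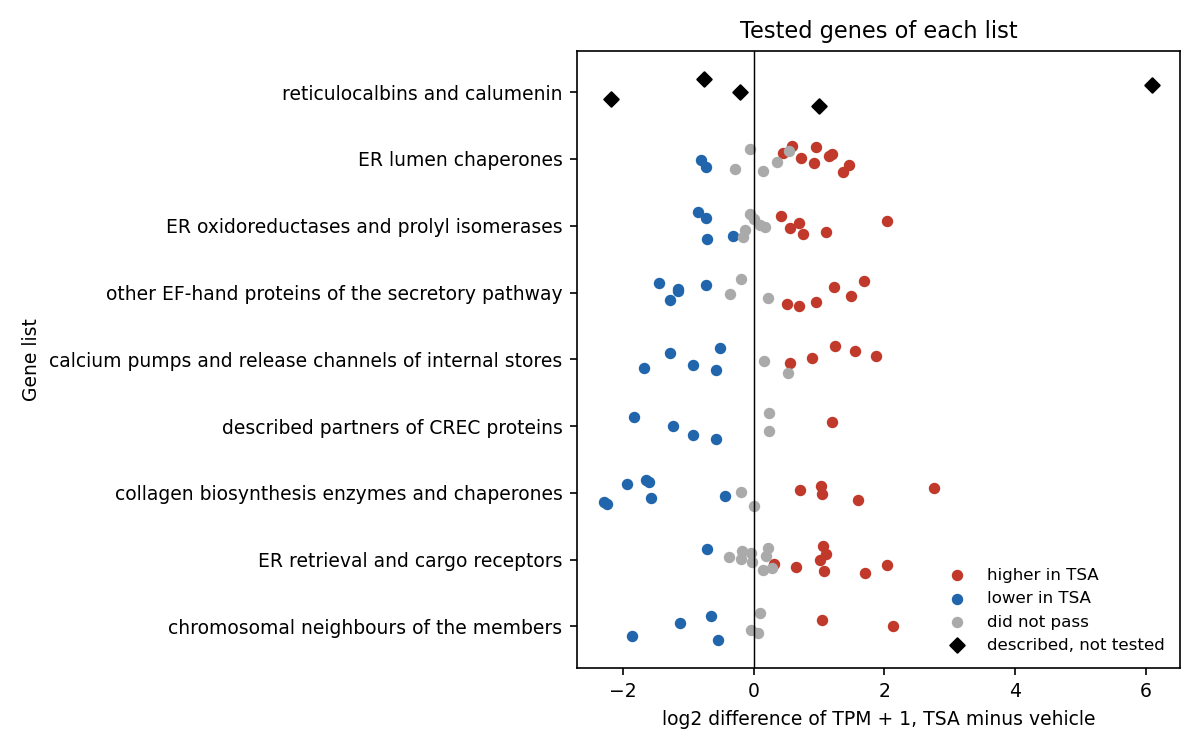
Log2 difference, TSA minus vehicle, of the tested genes of each list (rows), coloured by whether they passed limma's test as higher (red) or lower (blue) or did not pass (grey). The 5 family members (black diamonds) span −2.18 to 6.10, and RCN3 lies beyond every other gene shown.

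The recovered reads, which are lower bounds, came to 22533307 to 26148651 per library. Of the tested genes 4929 were higher and 6013 lower, and the median log2 difference of all tested genes was −0.10. Scaling by median ratios moved that median by 0.11, and quantile scaling moved it by 0.10. The 6 neuroendocrine markers looked at summed to 643 to 762 TPM in TSA and 1293 to 1539 TPM in vehicle, and INSM1 was at 24.7 ± 4.93 TPM in TSA and 614 ± 77.4 TPM in vehicle. The 4 bile duct markers looked at each reached 1 TPM, and they summed to 265 to 383 TPM in TSA and 748 to 953 TPM in vehicle. EPCAM and KRT19 made up most of these sums and were lower in TSA, as was KRT7, while SOX9 was higher at 23.0 ± 2.33 TPM in TSA and 15.9 ± 1.67 TPM in vehicle (limma adjusted p 0.012, and 0.053 without TSA replicate 3). Of 7 fibroblast markers, examined because reticulocalbins and calumenin are abundant in fibroblasts, 6 (COL1A2, COL3A1, DCN, LUM, PDGFRB and FAP) were at 0 in every vehicle library and averaged at most 0.272 TPM in TSA. COL1A1 was at 5.44 ± 0.958 TPM in TSA and 0.510 ± 0.358 TPM in vehicle, and the 7 summed to 5.36 to 7.22 TPM in TSA and 0.211 to 0.906 TPM in vehicle. KRT7 was under 1 TPM in every TSA library and COL1A1 in every vehicle library, so each could pass the filter only through the other group. The part of these marker changes in the family's values was not tested.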

How the data were processed

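Polyadenylated RNA of 6 H69 libraries was prepared with a stranded kit, per the labels. STAR 2.5.3a, featureCounts, edgeR and the build hg19 stand, without roles, in the submitters' processing notes. The authors deposited TPM for GENCODE 19 genes, per the file headers and name. Their own comparison holds a log2 fold change and mean log2 CPM, a likelihood ratio score, and a p-value and FDR, per the file headers, with its direction read off the TPM values. The labels and headers do not say whether counting used strand.

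The members and gene lists were chosen with earlier results of these data known. limma 3.58.1 (R 4.3.3, eBayes with trend, two-sided) was run on log2(TPM + 1). Tested were the genes that reached 1 TPM in 3 or more libraries, with Benjamini-Hochberg adjustment over all 17596 and a threshold of 0.05. Named genes were all members, the 5 (RCN3) or 3 genes most alike in pattern, up to 4 called members of each list with the largest change, and the tested neighbours. A neighbouring gene and a marker gene are not reported here and are left out of the counts of those lists. In all 27644 genes with 2 or more values above 0, ratios of TPM were ratios of whole numbers (relative tolerance 1e-11), and the smallest such numbers are the recovered reads. No pair of libraries of a group agreed within sampling noise (chi-square per degree of freedom 7.33 to 95.1). Transcript lengths and gene types came from GENCODE 29, another build than hg19, and 95.4% of the tested genes had a length. Gene order came from RefSeq on GRCh38.p14. Figures were drawn with matplotlib 3.10.9. Alternatives were other pseudocounts, filters, scalings, variance settings, a replicate block, a length correction and leaving out each library, and, chosen after seeing the data, a test of recovered reads with limma's voom and fits without replicate 1 libraries or without mitochondrial genes.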

Additional observations from a re-analysis of the deposited data

How the results depend on the processing

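The direction of the members' differences held in 94 of 95 alternative values, and the exception was RCN2 at 0.039 with the length trend removed. That count includes settings whose direction was fixed in advance. Other filters, other variance settings and the replicate block leave a member's difference unchanged by construction, so they say nothing on its direction. The difference of RCN3 was 7.90 with a pseudocount of 0.1, 6.80 with 0.5 and 8.44 in the test of recovered reads. That of RCN1 was −2.61, −2.39 and −2.53 in the same settings. That of CALU was 1.11 with the length trend removed, 1.13 with a median-of-ratios scaling and 1.14 in the test of recovered reads. With pseudocounts the cause lies in their construction, which weighs low values differently, and otherwise the cause was not tested. Leaving out each library in turn gave 5.94 to 6.30 for RCN3, 0.94 to 1.05 for CALU, −0.28 to −0.09 for RCN2, −0.83 to −0.66 for SDF4 and −2.27 to −2.07 for RCN1, 9446 to 11562 called genes, and 6 to 9 called ER oxidoreductases and prolyl isomerases. Where a library was left out, fewer samples stood behind each call.

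Among the named genes outside the family, 845 values kept direction and call, and 12 values of PRRG2, B3GALT6 and SOX9 lost the call, that of the bile duct marker SOX9 only without TSA replicate 3 (limma adjusted p 0.053). Signs turned for 3 genes that never passed. ELP4 turned to 0.30 with the length trend removed, 0.082 and 0.087 under median-of-ratios and quantile scalings, 0.096 in the test of recovered reads, 0.048 without both replicate 1 libraries, 0.0034 without mitochondrial genes, and leaving out each library gave −0.13 to 0.099. Leaving out each library gave −0.0080 to 0.17 for EIF3M and −0.040 to 0.19 for TSPAN3. In the test of recovered reads PRRG2 was at 1.72, against 1.05. Whether the replicate numbers pair the libraries could not be settled, since deviations from a mean of 3 libraries depend on each other. The deviations of same-numbered libraries correlated at 0.63, 0.59 and −0.07. Libraries 1 and 2 of each group correlated best with their own number, and library 3 of each group did not. With the replicate number as a block 12485 genes were called, against 10942 without it, and 10903 were shared. The planned edgeR test of recovered reads was not run, since the deposited unit is TPM, and limma's voom took its place. Depth limits RCN3 in vehicle, which rests on 15 recovered reads in all, a lower bound like the other recovered reads.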
